A study of Mus musculus with 19 samples.

Results

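Collagen genes were the 44 genes of the 'HEART' table whose symbol had the form Col, number, a, number, out of 24421 gene rows. A locus of their own was listed for 42 of them in 'SHF', out of 22769 symbols with 1 symbol per locus, and Col7a1 and Col20a1 shared a locus with another gene there and were not read. A gene counted as detected from a mean of 0.5 CPM (counts scaled to library size) in 'HEART' or 0.5 FPKM (scaled to depth and transcript length) in 'SHF', which left 32 genes in 'HEART' and 29 in 'SHF', and all 29 were also among the 32. By class, 8 of 11 fibrillar genes, 7 of 8 basement membrane genes and 17 of 25 other collagen genes were detected in 'HEART'. The genes nearest the minimum in 'HEART' were Col4a3 at 0.352 CPM below it and Col15a1 at 0.857 CPM above it, and in 'SHF' they were Col8a1 at 0.409 FPKM and Col6a3 at 0.737 FPKM.

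Collagens are the triple-helical proteins of the extracellular matrix. Each chain carries glycine at a fixed interval, the first residue of each triplet, and trimers of chains assemble in the endoplasmic reticulum before they are secreted. Fibrillar collagens polymerise into tensile fibres, whereas type IV collagen forms the network of basement membranes, and in the early heart the matrix lies between endocardium and myocardium, where cushion tissue later forms.

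To examine loss of the chromatin remodeller CHD7 in the cardiopharyngeal mesoderm, RNA was sequenced from single mouse embryos at E9.5, each either cKO (Mesp1-Cre; Chd7 fl/fl) or control (Mesp1-Cre), so that both genotypes carried the Cre. The 'HEART' dissection (outflow tract and heart tube, 4 control and 4 cKO samples) gave read counts per gene, and the 'SHF' dissection (distal pharyngeal apparatus, 5 control and 6 cKO samples) gave a single FPKM value per genotype. Mesp1-Cre acts in early mesoderm, so cells of other origin in a dissection, such as neural crest and pharyngeal epithelium, keep Chd7, and 8 of the 11 embryos gave both dissections. 'HEART' libraries held 8640839 to 15030099 counts. Chd7 stood at 224 to 242 CPM in control and 20.4 to 43.5 CPM in cKO 'HEART'. The 6 cardiomyocyte markers summed to 33945 to 38779 CPM in control and 34025 to 37474 CPM in cKO samples, and 0 of the 6 passed the test (0 at an unadjusted p of 0.05). Xist, transcribed from the inactive X chromosome of female cells, was at 61.4 CPM in control 1, at 0.162 to 1.28 CPM in controls 2 to 4 and at 34.6 to 86.3 CPM in the cKO samples. Xist was thus unevenly spread over the genotypes, and results with control 1 as the lone control are given where they change a call. In that fit the spread came from the cKO samples alone, the lone control was assumed to vary like them, and a call lost or gained there says little about stability. Control 4 stood apart from the other controls for several collagens. It also had the highest summed level of erythroid markers (12536 CPM, against 4305 CPM in the lowest control) and of neural crest and pharyngeal mesenchyme markers (39.0 CPM). The same held for pharyngeal endoderm and epithelium markers (355 CPM, against 182 CPM in the lowest control). Control 4 had the lowest sums of epicardial (37.0 CPM) and of notochord and cartilage precursor markers (21.1 CPM, mostly Sox9). In these bulk samples fewer cells of a type and less RNA per cell cannot be told apart.

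The coding sequences of the classes differed in how long the glycine repeat ran unbroken. This feature played no part in choosing the genes, but the classes are fixed lists of known collagen types. The difference therefore describes the classes and is not a result of these data. Glycine is encoded by any codon that begins with GG. In the longest coding sequence of each gene (GENCODE M21), the longest unbroken run of glycine in the first codon of each triplet was 216 to 344 triplets in the 11 fibrillar genes (median 338), 30 to 66 triplets in the 8 basement membrane genes (median 41) and 23 to 113 triplets in the 25 other genes (median 52). Coding exons of exactly 54 bases, which hold whole triplets, made up 47.0% of 649 fibrillar exons, 4.24% of 377 basement membrane exons and 15.1% of 978 other exons. The exons below come from 4 genes on which the results turn, with every glycine codon of the reading frame in capitals (mm10, coding strand). They were picked as examples of the unbroken fibrillar pattern and of the interruptions of type IV chains. At an interruption 2 glycine codons of the repeat stand closer together or further apart. In the Col4a1 exon the adjacent codons GGAGGG are no interruption, since the next glycine of the repeat follows in step.
Col2a1 coding exon 29, chr15:97985863-97985916, minus strand: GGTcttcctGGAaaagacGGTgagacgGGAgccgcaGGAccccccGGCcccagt
Col3a1 coding exon 26, chr1:45334761-45334814, plus strand: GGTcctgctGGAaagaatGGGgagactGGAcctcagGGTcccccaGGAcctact
Col4a1 coding exon 31, chr8:11220982-11221095, minus strand: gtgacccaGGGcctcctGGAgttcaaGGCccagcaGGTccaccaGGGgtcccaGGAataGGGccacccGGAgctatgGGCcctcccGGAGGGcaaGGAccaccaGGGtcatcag
Col4a6 coding exon 19, chrX:141203771-141203920, minus strand: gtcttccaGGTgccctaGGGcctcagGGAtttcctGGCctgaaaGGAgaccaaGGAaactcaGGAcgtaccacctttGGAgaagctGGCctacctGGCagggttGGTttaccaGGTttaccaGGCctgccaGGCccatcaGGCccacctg

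**Figure D1:**
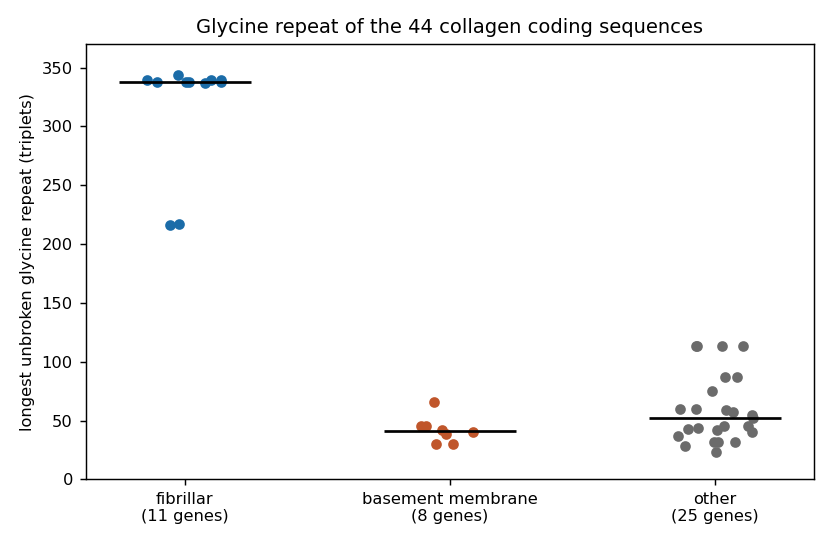
Longest unbroken glycine repeat, in triplets, in the coding sequence of each of the 44 collagen genes, by class (points, genes; black lines, medians). Fibrillar genes sit between 216 and 344 triplets, basement membrane genes between 30 and 66 and the others between 23 and 113.

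In control 'HEART', levels per kilobase of transcript were led by Col2a1, which encodes the chain of type II collagen best known from cartilage and notochord, at 246 CPM per kb (203 to 268 over the 4 samples). Next came Col4a1 at 132 CPM per kb (115 to 147), Col18a1 at 120 CPM per kb (110 to 129) and Col4a2 at 107 CPM per kb (96.3 to 122), whose ranges overlapped each other but not that of Col2a1. Col5a1 followed at 45.2 CPM per kb (38.4 to 58.0). Col1a1, which encodes the main chain of type I collagen, had a mean of 36.3 CPM per kb that came from an unequal range of 5.81 to 120. The lowest detected gene was Col4a4 at 0.0495 CPM per kb. Of all counts on collagen genes, scaled, Col2a1, Col4a1, Col4a2 and Col18a1 held 74.5%, 75.0%, 74.1% and 60.1% in controls 1 to 4 and 78.1% to 80.4% in the cKO samples.

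Of the 32 detected genes 8 passed an adjusted p of 0.1 in edgeR's quasi-likelihood test with Benjamini-Hochberg adjustment over 12694 genes. Higher in cKO were 6 of them (Col2a1, Col4a1, Col4a2, Col4a4, Col5a1 and Col6a1), where 3.51% of all genes tested were higher, and 2 were lower (Col3a1 and Col4a6), where 2.92% of all genes were. Over both directions 6.44% of all genes were called. A further 24 members did not pass, 6 of them with an unadjusted p under 0.05. With called genes included, 14 of the 32 members and 2105 of the 12694 genes tested had an unadjusted p under 0.05. Samples of the genotypes did not overlap for 6 members with cKO higher and 2 with cKO lower, against 5.10% of all genes in each direction. The median log2 fold change was 0.14 over the 8 fibrillar genes, 0.23 over the 7 basement membrane genes and -0.08 over the 17 others, beside -0.01 over all genes tested. Among fibrillar genes 2 were higher and 1 was lower, among basement membrane genes 3 were higher and 1 was lower, and among the others 1 was higher. Without control 4 there were again 6 higher, with Col12a1 in place of Col4a4, and 2 lower. With control 1 as the lone control, and spread from the cKO samples only, 4 were higher (Col2a1, Col4a1, Col4a2 and Col12a1) and 1 was lower (Col3a1).

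**Figure D2:**
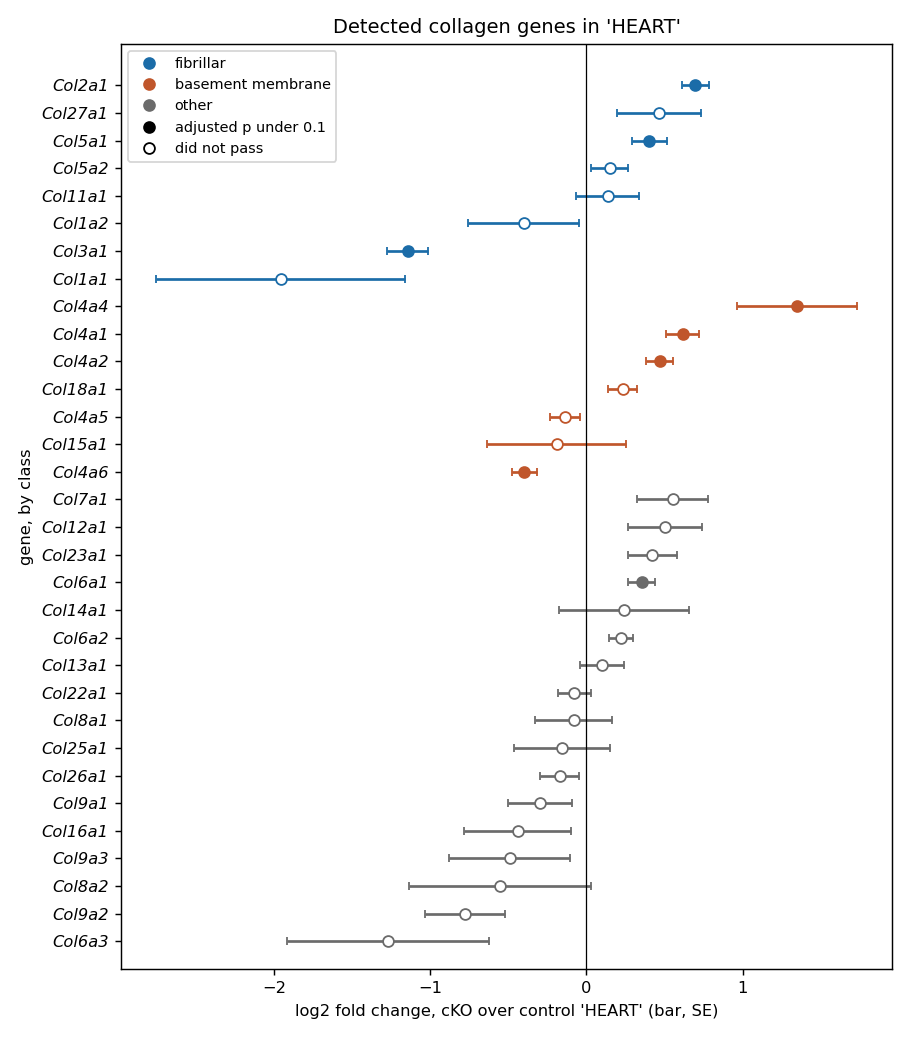
Log2 fold change of the 32 detected collagen genes in 'HEART', cKO over control, ordered within class (points, edgeR estimates; bars, SE; filled points passed an adjusted p of 0.1). Filled points lie on both sides of 0 in the fibrillar and basement membrane classes, from -1.14 for Col3a1 to 1.35 for Col4a4.

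Among fibrillar genes, Col3a1 fell and Col2a1 rose. Col3a1 (chromosome 1, 45311538 to 45349706, plus strand) encodes the homotrimeric type III collagen of distensible tissues such as vessel walls. Controls 1 to 4 gave 137, 201, 179 and 224 CPM, against 72.8, 96.4, 81.7 and 83.7 CPM for cKO 1 to 4. All cKO samples lay below all controls, and the cKO mean was 2.21-fold lower (log2 fold change -1.14 ± 0.13, SE; edgeR adjusted p = 0.000506). The fold was smaller, with a log2 value of -0.71, when control 1 stood alone against the cKO samples. Markers of neural crest and pharyngeal mesenchyme moved with it. Their 6 genes summed to 26.4 to 39.0 CPM in control and 11.6 to 14.7 CPM in cKO samples, 3 of the 6 fell and the other 3 were too low to test, with Foxd3 at 0 in every library. Their part in the Col3a1 result was not tested.

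The 250 bases upstream of the Col3a1 start are shown because Col3a1 was the member with the largest fall among those that passed and the only collagen past 2-fold in 'SHF' (RefSeq, GRCm38, plus strand). Its match to TATAAA, the letters of a TATA box, is in capitals, and 12.4% of 32851 RefSeq windows of this length hold that hexamer. The match lies near the middle of the window and not close to the start. Whether it works as a TATA box was not tested. Also searched on both strands were CCAAT, held by 33.8% of windows, and the GATA motif spelled AGATAA, held by 9.99%, and neither is in the letters of this window. The RefSeq table held windows for 35 of the 44 symbols, 38 windows in all.
Col3a1 upstream window, chr1:45311288-45311537, plus strand: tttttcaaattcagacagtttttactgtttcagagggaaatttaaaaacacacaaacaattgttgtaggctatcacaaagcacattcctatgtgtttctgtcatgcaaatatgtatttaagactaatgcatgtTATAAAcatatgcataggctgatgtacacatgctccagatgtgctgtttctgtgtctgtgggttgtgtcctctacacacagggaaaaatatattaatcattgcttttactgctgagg

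Col2a1 (chromosome 15, 97975602 to 98004695, minus strand) went the other way. Controls 1 to 4 stood at 1333, 1039, 1293 and 1366 CPM, and cKO 1 to 4 at 2087, 2115, 1835 and 2115 CPM. Even the lowest cKO sample, cKO 3, was above the highest control, and the cKO mean was 1.62-fold higher (log2 fold change 0.70 ± 0.09, SE; edgeR adjusted p = 0.00068). Of the 6 notochord and cartilage precursor markers, 4 were below 1 CPM on average (Noto was at 0 in every library). The sum over the 6 was 21.1 to 41.8 CPM in control and 27.4 to 35.7 CPM in cKO samples. Most of it was Sox9, also on the collagen-modifying list, at 19.2 to 37.2 CPM in control and 25.4 to 34.6 CPM in cKO samples. The sum is therefore mainly a reading of that gene. Per sample, the ratio of Col3a1 to Col2a1 per kilobase was 0.0945 to 0.177 in control and 0.0320 to 0.0418 in cKO. Since Col3a1 fell and Col2a1 rose without overlap, this ratio had to separate the genotypes and is no further result.

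Col5a1, which encodes a chain of the type V collagen that forms the core of mixed fibrils, rose with overlap between the genotypes. Controls 1 to 4 had 369, 322, 341 and 488 CPM and cKO 1 to 4 had 509, 522, 461 and 518 CPM. The high control was control 4, above cKO 3. Its log2 fold change was 0.40 ± 0.11 (SE; edgeR adjusted p = 0.0644), and 0.55 with an adjusted p of 0.00128 without control 4. The call was lost (adjusted p of 0.159 to 0.179) when control 1, 2 or 3 or cKO 1 or 2 was left out, and over all alternatives the adjusted p ran from 0.00128 to 0.323.

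Col5a2, its partner chain, lies next to Col3a1 on chromosome 1 with a gap of 24614 bases and on the other strand. Its levels were 79.8, 98.1, 87.9 and 119 CPM in controls 1 to 4 and 92.5, 110, 104 and 120 CPM in cKO 1 to 4. The groups overlapped and it did not pass (log2 fold change 0.15 ± 0.12, SE; edgeR adjusted p = 0.586), beside the fall of its neighbour.

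Type I collagen, the main fibrillar collagen of connective tissue, was set apart by control 4. Col1a1 stood at 49.7, 34.5, 63.5 and 715 CPM in controls 1 to 4 and at 54.8, 36.9, 82.4 and 48.9 CPM in cKO 1 to 4. Control 4 was 14.5-fold above the mean of controls 1 to 3, which lay within the cKO range or next to it. Col1a2, the second chain, had 57.2, 66.8, 77.9 and 238 CPM in controls 1 to 4 and 80.6, 86.2, 72.6 and 92.2 CPM in cKO 1 to 4. The same control was again highest. Per kilobase the ratio of Col1a1 to Col1a2, whose chains join in trimers with an excess of the Col1a1 chain, was 2.71 in control 4 and 0.386 to 1.02 in the other 7 samples.

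Neither type I gene passed, with log2 fold changes of -1.96 ± 0.80 for Col1a1 and -0.40 ± 0.36 for Col1a2 (SE; edgeR adjusted p = 0.227 and 0.639). Without control 4 the same estimates were 0.17 and 0.30, so the sign of both rested on that library. Col6a3, a chain of type VI collagen, was likewise at 11.4 CPM in control 4 and at 1.45 to 2.64 CPM in the other controls. In all, 7 of the 32 detected genes were more than 2-fold higher in control 4 than in the mean of the other controls. Among them Col6a3, Col8a2, Col14a1 and Col15a1 were low, with means of 0.724 to 1.86 CPM in the other controls. The share of all genes past this limit is not given, so the count is not a trait of collagens. Erythroid, mesenchymal and epithelial markers were also highest among the controls there, and epicardial and notochord markers lowest, as given above, and their part in these levels was not tested.

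**Figure D3:**
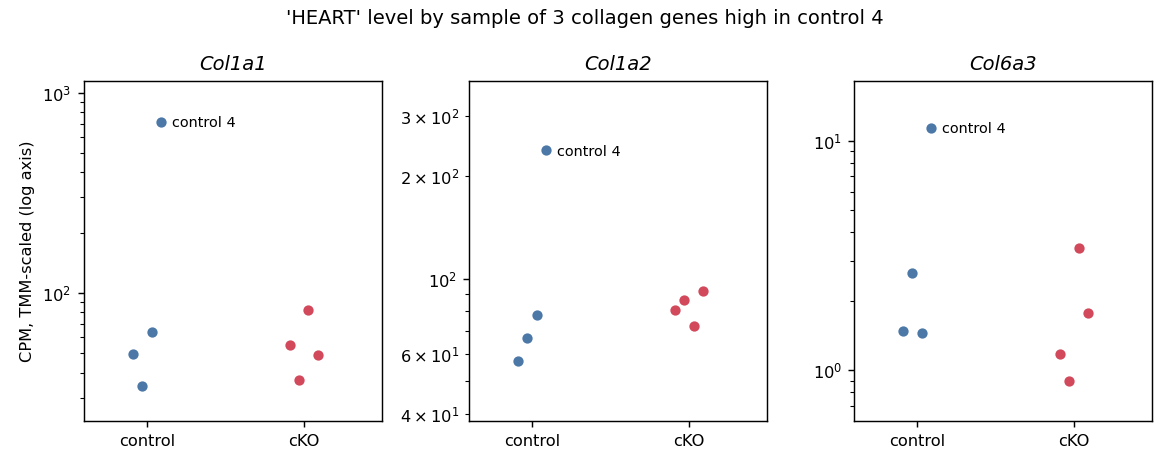
CPM (log axis) of Col1a1, Col1a2 and Col6a3 in each 'HEART' sample, by genotype (points, samples; control 4 is labelled). In each panel control 4 lies above the other 7 samples, at 715, 238 and 11.4 CPM.

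The remaining fibrillar genes gave no call. Col11a1, which nucleates cartilage fibrils with type II collagen, had 11.0 to 24.8 CPM in control and 18.7 to 23.5 CPM in cKO samples. Col27a1 was at 1.88 to 4.30 CPM over all samples. Col5a3, Col11a2 and Col24a1 were not detected in either dissection.

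Basement membrane genes were led by Col4a1 and Col4a2, whose chains form the common type IV trimer. Col4a1 (chromosome 8, 11198423 to 11312826, minus strand) had 785, 967, 972 and 764 CPM in controls 1 to 4 and 1234, 1620, 1243 and 1247 CPM in cKO 1 to 4. All cKO samples were above all controls, with cKO 2 the highest. It was 1.53-fold higher in cKO (log2 fold change 0.62 ± 0.11, SE; edgeR adjusted p = 0.00537).

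Col4a2 (chromosome 8, 11312805 to 11449287, plus strand) had 621, 785, 732 and 631 CPM in controls 1 to 4 and 892, 1046, 921 and 973 CPM in cKO 1 to 4. Again the genotypes did not overlap, and the cKO mean was 1.38-fold higher (log2 fold change 0.47 ± 0.08, SE; edgeR adjusted p = 0.00705). The start sites of these divergent genes lie 21 bases apart in GENCODE M21, and the annotated genes overlap by 22 bases. Their levels per kilobase stayed in a narrow ratio, 1.18 to 1.29 for Col4a1 over Col4a2 in control and 1.25 to 1.51 in cKO samples.

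Markers of parietal endoderm and yolk sac, cells known for abundant type IV collagen, were read beside this pair. Their 6 genes summed to 637 to 677 CPM in control and 764 to 858 CPM in cKO samples. Sparc encodes a collagen-binding matrix protein and is the 1 gene this list shares with the collagen-modifying list. It held most of that sum and rose, as did Thbd (thrombomodulin, also endothelial). Lama1, at 26.1 to 56.9 CPM in control and 35.4 to 39.8 CPM in cKO samples, did not pass. Afp, Apoa1 and Ttr were at 0 to 18.3 CPM in every library. Of these Ttr did not pass, and Afp and Apoa1 were not tested. The 6 endothelial and endocardial markers summed to 638 to 879 CPM in control and 670 to 905 CPM in cKO, and 0 of them passed (2 at an unadjusted p of 0.05, both higher in cKO). Markers of pharyngeal endoderm and epithelium were also higher in cKO as a sum. Their 6 genes summed to 182 to 355 CPM in control and 388 to 445 CPM in cKO samples, without overlap. Nearly all of that sum was Krt8 and Krt19, keratins of simple epithelia, of which Krt19 rose (log2 fold change 1.17 ± 0.15, SE; edgeR adjusted p = 0.000892) and Krt8 did not pass (0.61 ± 0.20; edgeR adjusted p = 0.135), whereas Epcam reached at most 5.10 CPM and Foxa2, Pax9 and Nkx2-1 were below 1 CPM on average. Control 4 had the highest sum of these epithelial markers among the controls. Col4a1 was lowest of the controls there (764 CPM), whereas Col4a2 was lowest in control 1 (621 CPM, against 631 CPM in control 4). A single library cannot show how these markers and the pair relate. The part of all these markers, and that of other cells, in the Col4a1 and Col4a2 result was not tested.

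The X-linked type IV pair did not follow. Col4a6 (X chromosome, 141165403 to 141474076, minus strand), a chain of epithelial and smooth muscle basement membranes, had 61.7, 61.6, 65.4 and 58.2 CPM in controls 1 to 4 and 40.9, 46.2, 49.3 and 51.3 CPM in cKO 1 to 4. All cKO samples were below all controls, and it fell 1.32-fold (log2 fold change -0.40 ± 0.08, SE; edgeR adjusted p = 0.0153). With log2 Xist as a covariate the estimate was -0.36 with an adjusted p of 0.245, and with control 1 as the lone control it was -0.40 with an adjusted p of 0.329, so the call was lost at a like size. Its adjusted p over all alternatives ran from 0.00102 to 0.329. Col4a5, its divergent neighbour 1308 bases away, had 125, 155, 172 and 138 CPM in controls 1 to 4 and 125, 133, 137 and 140 CPM in cKO 1 to 4. It overlapped between genotypes and did not pass (log2 fold change -0.14 ± 0.09, SE; edgeR adjusted p = 0.512). Per kilobase the ratio of Col4a5 to Col4a6 was 2.05 to 2.68 in control and 2.78 to 3.11 in cKO samples, without overlap.

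The last type IV pair was scarce. Col4a4 had 0.259, 0.682, 0.647 and 0.413 CPM in controls 1 to 4 and 1.65, 0.901, 1.17 and 1.31 CPM in cKO 1 to 4, from 4 to 21 reads a library. The groups did not overlap (log2 fold change 1.35 ± 0.38, SE; edgeR adjusted p = 0.0757), but the call failed in most alternatives. It did not hold with DESeq2 (adjusted p = 0.129) or with a minimum of 1 CPM in 4 samples, which the gene did not reach. Besides that minimum, Col4a4 lost its call in 11 alternatives, a stricter threshold among them, and kept it in 8. Over all alternatives its adjusted p was 0.068 to 0.29. Col4a3 had 0.129, 0.171, 0.242 and 0.413 CPM in controls 1 to 4 and 0.235, 0.573, 0.819 and 0.230 CPM in cKO 1 to 4, overlapped and was too low to test. These genes, whose chains with that of Col4a5 form the adult kidney trimer, share a gap of 71 bases between their divergent starts, shown because it is all that separates the starts (mm10, in the direction of Col4a4).
gap between Col4a4 and Col4a3, chr1:82586850-82586920, minus strand: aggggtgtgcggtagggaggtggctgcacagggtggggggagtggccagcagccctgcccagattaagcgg

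Col18a1, which encodes the heparan sulphate-bearing collagen from which endostatin is cut, had 614, 723, 642 and 697 CPM in controls 1 to 4 and 734, 866, 665 and 881 CPM in cKO 1 to 4. Sample cKO 3 lay within the control range, and the gene did not pass (log2 fold change 0.23 ± 0.09, SE; edgeR adjusted p = 0.215). Col15a1, its relative, was at 0.242 to 1.49 CPM over all samples. Summed over the class, basement membrane collagens were at 2208, 2694, 2585 and 2290 CPM in controls 1 to 4 and at 3029, 3714, 3018 and 3294 CPM in cKO 1 to 4. That sum, without overlap and 1.34-fold higher in cKO, is mostly Col4a1, Col4a2 and Col18a1.

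**Figure D4:**
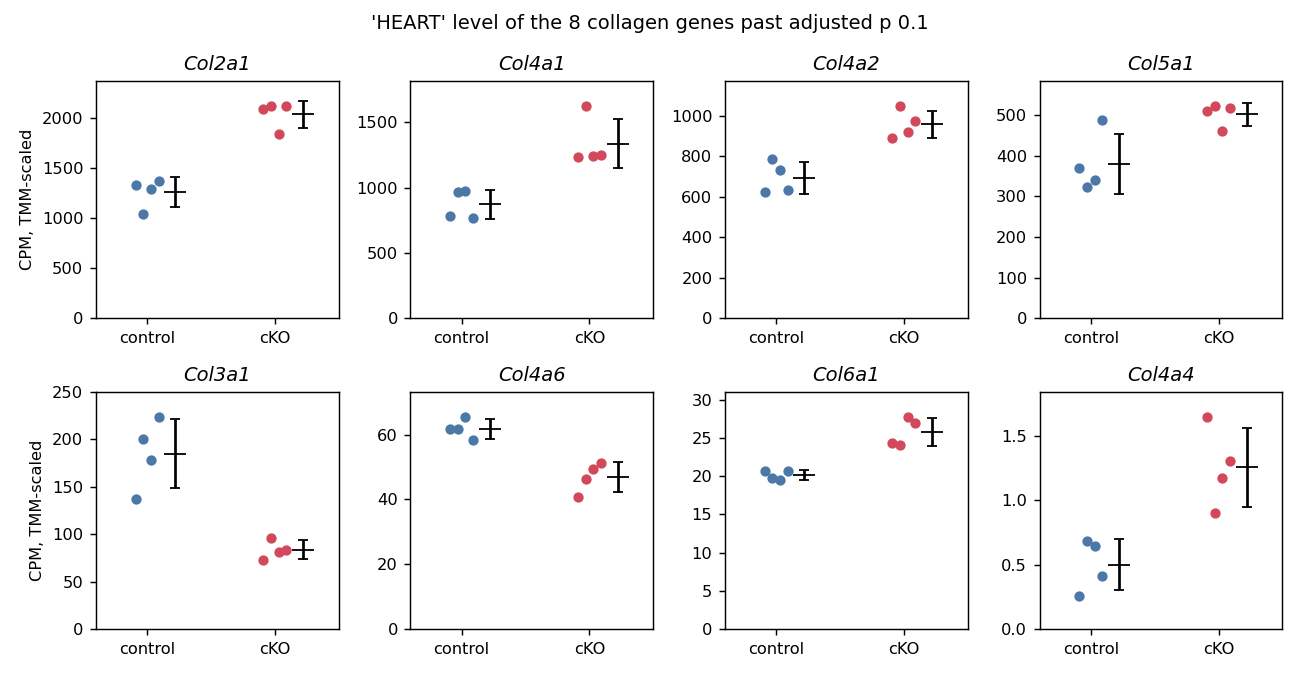
CPM scaled by TMM in each 'HEART' sample for the 8 collagen genes past an adjusted p of 0.1 (points, samples; black bars, mean and SD; axes start at 0). Col5a1 is the only 1 of the 8 whose genotypes overlap, and Col3a1 and Col4a6 are lower in cKO.

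Outside these classes, type VI collagen, a beaded microfibril collagen, gave the lone call. Col6a1 had 20.7, 19.79, 19.5 and 20.6 CPM in controls 1 to 4 and 24.4, 24.1, 27.7 and 27.0 CPM in cKO 1 to 4. The groups did not overlap, and it rose 1.28-fold (log2 fold change 0.35 ± 0.09, SE; edgeR adjusted p = 0.0374). Without control 3 the log2 value was 0.34 with an adjusted p of 0.101, and with control 1 alone it was 0.32 with an adjusted p of 0.523, the lowest over the alternatives being 0.0201. Col6a2, on the same strand of chromosome 10 with a gap of 85161 bases, had 48.4, 50.2, 47.5 and 41.9 CPM in controls 1 to 4 and 51.9, 57.3, 56.1 and 54.2 CPM in cKO 1 to 4. It did not overlap either, yet did not pass (log2 fold change 0.22 ± 0.08, SE; edgeR adjusted p = 0.148).

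Col12a1, a fibril-associated collagen with interrupted triple helices, was the most counted of the other class. It had 51.9, 33.3, 63.2 and 101 CPM in controls 1 to 4 and 86.6, 99.5, 88.1 and 79.0 CPM in cKO 1 to 4. Control 4 lay above every cKO sample and the other controls lay below them, and Col12a1 did not pass (log2 fold change 0.50 ± 0.24, SE; edgeR adjusted p = 0.315). Without control 4 the value was 0.83 with an adjusted p of 0.0116, and the adjusted p ran to 0.567 over the alternatives. Col22a1, known from tissue junctions of muscle, had 29.0, 22.1, 25.1 and 28.9 CPM in controls 1 to 4 and 25.7, 27.0, 23.1 and 23.7 CPM in cKO 1 to 4. Its genotypes overlapped, with a log2 fold change of -0.08 ± 0.10 (SE; edgeR adjusted p = 0.779).

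Of the other members in that class, the transmembrane collagens Col13a1 (15.8 to 25.02 CPM over all samples) and Col23a1 (16.8 to 37.5 CPM) and the short secreted Col26a1 (16.0 to 24.4 CPM) had no call. The type IX genes, whose collagen coats type II fibrils, were low, with Col9a1 at 4.01 to 7.11 CPM, Col9a2 at 1.92 to 5.58 CPM and Col9a3 at 0.615 to 2.18 CPM. Their log2 fold changes of -0.30, -0.78 and -0.49 did not pass, beside the rise of Col2a1. Col7a1, Col8a1, Col8a2, Col14a1, Col16a1 and Col25a1 did not pass either and reached at most 7.89 CPM in any sample. Of the 12 genes below the minimum, 5 had 3 reads or fewer in all 8 libraries. Col10a1 and Col19a1 had 0 of 98193903 counts, which allows up to 0.0306 CPM over the libraries, counting error only.

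In 'SHF' a single FPKM value per genotype, listed by the authors, allowed no test. Highest in control were Col18a1 at 82.9 FPKM, Col3a1 at 75.9 FPKM, Col2a1 at 64.7 FPKM, Col4a1 at 64.6 FPKM and Col4a2 at 54.2 FPKM. Next was Col26a1 at 36.4 FPKM. The libraries of the dissections were made by different kits (poly(A) selection for 'HEART', ribosomal depletion for 'SHF'), so neither levels nor their order were compared across them.

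Of the 29 detected genes 3 were past 1.5-fold lower in cKO 'SHF' on the log2 scale with 0.1 FPKM added, where 1.92% of 12031 symbols were, and 0 were past 1.5-fold higher, where 0.889% were. Col3a1 stood at 37.1 FPKM for cKO and 75.9 FPKM for control (log2 ratio -1.03). Col9a2 was at 2.88 against 4.71 FPKM (-0.69) and Col14a1, a fibril-associated collagen, at 1.20 against 1.98 FPKM (-0.68). Only Col3a1 was past 2-fold. Whether these differences exceed the spread between 'SHF' samples was not tested here. In the same values markers of neural crest and pharyngeal mesenchyme were past 1.5-fold lower for 1 of 6 genes, cardiomyocyte markers for 4 of 6 and parietal endoderm and yolk sac markers for 4 of 6 (Afp, Apoa1, Ttr and Thbd, none above 3.87 FPKM). Epicardial markers were past 1.5-fold higher for 2 of 5 genes (Wt1 and Aldh1a2, 1.99-fold and 3.25-fold), and no detected gene of the other marker lists was past it. Their part was not tested.

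**Figure D5:**
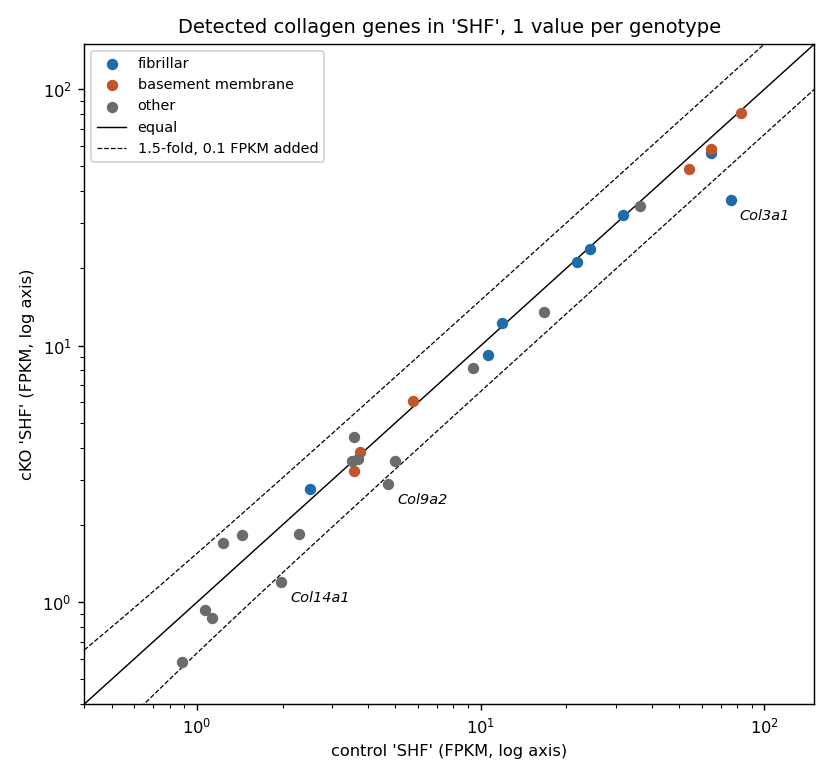
FPKM of the 29 detected collagen genes in cKO against control 'SHF', 1 value per genotype (log axes; solid line, equal; dashed lines, 1.5-fold after adding 0.1 FPKM). Col3a1, Col9a2 and Col14a1 lie below the lower dashed line and no gene lies above the upper one.

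Of the other genes called in 'HEART', Col4a4 was not detected in 'SHF' (0.0364 FPKM for cKO against 0.0419 FPKM for control), and 6 were close to equal between genotypes. Col2a1 stood at 56.4 FPKM for cKO against 64.7 FPKM for control, Col4a1 at 58.3 against 64.6 FPKM and Col4a2 at 48.6 against 54.2 FPKM, all slightly lower where the 'HEART' values were higher. Col5a1 was at 23.9 against 24.2 FPKM, Col4a6 at 3.85 against 3.74 FPKM and Col6a1 at 3.63 against 3.70 FPKM. The dissections share embryos and their difference was not tested. Type I genes stood at 21.1 against 21.8 FPKM (Col1a1) and 32.2 against 31.8 FPKM (Col1a2). The neighbours Col5a2, Col4a5 and Col6a2 were at 12.2 against 11.9, 6.08 against 5.76 and 3.54 against 3.53 FPKM. Col18a1 was at 81.0 against 82.9 FPKM, Col12a1 at 3.54 against 4.99 FPKM and Col22a1 at 1.83 against 1.44 FPKM. The median log2 ratio over the 29 genes was -0.13, beside -0.01 over the 12031 symbols. Below 0 were 20 of the 29 genes and 6492 of the 12031 symbols.

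A list of 47 genes that modify, fold, process, crosslink, bind or degrade collagen was read beside the collagens. In 'HEART' 41 were tested, 10 were higher in cKO (3.51% of all genes were), 0 were lower and 31 did not pass by edgeR. At an unadjusted p of 0.05 1 was lower, the collagen receptor gene Ddr2, which DESeq2 called. Without control 1 or without cKO 2 the count higher was 6. Over all genes 509 and 500 were then called in either direction, against 817 in the main fit. Prolyl 4-hydroxylase, which stabilises the helix, gave 2 of 4 genes, P4ha1 (log2 fold change 0.43 ± 0.10, SE) and the low P4ha3 (1.01 ± 0.30). Lysyl hydroxylases, which prepare crosslinks, gave 2 of 3, Plod1 (0.31 ± 0.09) and Plod2 (0.52 ± 0.12).

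Crosslinking lysyl oxidases gave Loxl1 (0.72 ± 0.10) and Loxl2 (0.47 ± 0.09), 2 of the 4 crosslinking genes tested. Loxl2 acts on type IV collagen. Integrin subunits that pair as a collagen receptor gave Itga1 (0.72 ± 0.10) and Itgb1 (0.34 ± 0.07). Sparc (0.28 ± 0.06) and Pcolce (0.35 ± 0.11), which speeds removal of the fibrillar propeptide, were the other 2, and edgeR adjusted p-values of the 10 ran from 0.00105 for Loxl1 to 0.0949 for Plod1 and Pcolce. The 3 genes of cartilage collagen transcription (Sox5, Sox6 and Sox9) did not pass, with Sox9 at a log2 fold change of 0.02 ± 0.20 (SE). The median log2 fold change over the list was 0.13, beside -0.01 over all genes tested. In 'SHF' 0 of the 38 detected list genes were past 1.5-fold in either direction.

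Summed over each sample, all collagens were at 4502, 4687, 4912 and 5758 CPM in controls 1 to 4 and at 6242, 7027, 5968 and 6566 CPM in cKO 1 to 4. The genotypes did not overlap, and the sum was 1.30-fold higher in cKO. Without Col2a1, Col4a1 and Col4a2 it was 1763 to 2997 CPM in control and 1969 to 2246 CPM in cKO, with overlap. Fibrillar collagens summed to 2048, 1775, 2069 and 3179 CPM in controls 1 to 4 and 2663 to 3001 CPM in cKO. Control 4, through Col1a1, lay above every cKO sample there. With Col1a1 left out, after its values were seen, controls ran from 1740 to 2464 CPM and cKO samples from 2581 to 2955 CPM, without overlap. Most of that sum was Col2a1, called higher on its own, with means of 1258 CPM in control and 2038 CPM in cKO. The means of the sum were 2052 and 2839 CPM, so it does not show a rise of the class as a whole. The other class summed to 218 to 290 CPM in control and 271 to 321 CPM in cKO samples, with overlap.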

How the data were processed

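Samples were grouped by title. The 19 samples came from 11 embryos, and within a dissection each sample is a separate embryo. The collagen genes and all lists were chosen with earlier results of these data known.

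For 'HEART' the authors deposited read counts per gene, made with fastp 0.20.1, STAR 2.7.2b (mm10) and featureCounts 1.6.4 as the submitters' processing notes and the methods name them. No source used here states the strand setting, so overlapping genes are uncertain. Columns holding 8 sets of normalised values, and those of the authors' own fold changes and p-values, were left out. For 'SHF' the authors deposited FPKM, 1 value for each genotype, beside their log2 ratios, p-values and q-values, which were likewise left out. The methods name STAR 2.5.0b, HTSeq and DESeq2 for it, whereas the table has the layout of Cuffdiff. A symbol with more than 1 locus was read from the locus of highest mean. Depth per 'SHF' sample is unknown.

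Analysis of the counts used R 4.3.3 and edgeR 4.0.16 (default filterByExpr, TMM, glmQLFit, glmQLFTest, Benjamini-Hochberg over 12694 genes, threshold 0.1). The biological coefficient of variation was 11.2%. CPM are TMM-scaled, and CPM per kilobase uses the longest coding transcript of GENCODE M21. The fit was tested on simulated data. No pair of libraries was alike within sampling noise.

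Values per sample are given for members past the threshold, the 3 of highest mean CPM in each class and neighbouring pairs. Outside the members, Chd7, Xist and list genes past the threshold are named, and Col1a2, Col6a3, Ddr2, Sox5, Sox6, Sox9 and the markers named singly were chosen after their values were seen. The glycine repeat was read from GENCODE coding sequences in place of the proteins first planned. Alternatives were DESeq2 1.42.0, limma-voom (limma 3.58.1), scaling by RLE or by totals, no filter or a CPM filter, a stricter threshold, each sample left out, blocks for replicate number and for embryo code, an Xist covariate, control 1 alone and no X or Y genes, and for 'SHF' another pseudocount, fold limit, minimum and locus rule.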

Additional observations from a re-analysis of the deposited data

Results flagged for a closer look

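Of 64 groups of 4 'HEART' samples (32 detected collagens in each genotype) 9 held a sample far from the other 3, where chance marks about 1 in 20 groups. Control 4 was high for Col1a1 (715 CPM, others 34.5 to 63.5 CPM), Col1a2 (238 CPM, others 57.2 to 77.9 CPM) and Col6a3 (11.4 CPM, others 1.45 to 2.64 CPM). Control 2 was low for Col8a1 (3.07 CPM, others 7.59 to 7.89 CPM). Within cKO, Col2a1 was low in cKO 3 (1835 CPM, others 2087 to 2115 CPM) and Col4a1 was high in cKO 2 (1620 CPM, others 1234 to 1247 CPM), and both stayed above every control. Col9a1 was high in cKO 1 (6.74 CPM, others 4.01 to 4.45 CPM), Col14a1 was low in cKO 3 (0.936 CPM, others 2.92 to 3.28 CPM) and Col16a1 was low in cKO 4 (0.538 CPM, others 1.29 to 1.33 CPM).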

How the results depend on the processing

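Col2a1, Col3a1, Col4a1 and Col4a2 kept their direction and stayed past the threshold in all 20 alternatives. The number of collagens called, 6 higher and 2 lower, ran from 3 to 7 higher and 2 to 3 lower as each library was left out, with 3 higher without control 3. With log2 Xist as a covariate it was 3 higher and 1 lower. Without X and Y genes, which leaves out Col4a6, 1 was lower. Over all genes 817 were called in the main fit, 221 with the Xist covariate and 500 to 1421 with a library left out. Calls over all genes thus changed as well, and the changes in the counts of collagens and list genes are not a trait of them. Members without overlap between genotypes (6 higher, 2 lower) ran from 6 to 10 higher and 2 to 4 lower with a library left out. There were 10 higher without cKO 3 and 4 lower without control 2. Leaving a library out can hardly end a lack of overlap, so these counts could do little but rise and say nothing about stability. The share over all genes with a library left out is not given. Of the 47 list genes, 6 to 9 were higher with a library left out, 3 with the Xist covariate and 4 with control 1 alone, and DESeq2 called 1 lower. The replicate number as a block also called 1 list gene lower (Ddr2), lost Col4a4 and added Col18a1 (adjusted p = 0.0871). Deviations of same-numbered samples correlated at 0.09, 0.06, 0.22 and -0.04, beside -0.19 to 0.15 for samples of unlike number. The value of 0.22, for control 3 and cKO 3, was the highest of all. Those samples share the first part of their embryo code, as do control 4 and cKO 4, and also cKO 1 and cKO 2. So few correlations cannot settle whether the numbers pair the samples. With type IV collagens as the only basement membrane members, the median log2 fold change of that class was 0.47 in place of 0.23, since Col15a1 and Col18a1 then leave it. In 'SHF' 1 gene (Col3a1) was past the limit lower with 1 FPKM added or with a limit of 2-fold, and 2 with loci summed. Col4a4 rests on few reads, and the single 'SHF' values carry no error.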
